A study of Mus musculus with 39 samples.

Results

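The genes described here are 9 genes that mark B cells, namely Cd79a, Cd79b, Ms4a1, Cd22, Cr2, Fcer2a, Blk, Pax5 and Mzb1, chosen by symbol from the tables of gene counts. They are 9 of the 24537 genes in the table that holds kidney, liver and lung, and 9 of the 52508 genes in a separate table that holds skin. All mice were C57BL/6 and carried the Prf1-/- deletion, which removes perforin, the pore-forming protein of cytotoxic lymphocytes, so that the young and the vehicle-treated animals lacked it as well. The study asked how ABT-737, an inhibitor of anti-apoptotic BCL-2 family proteins that was given to remove senescent cells, altered gene expression in old animals and whether it moved it towards that of young ones. Young mice were 3 months old at sacrifice and untreated. Old mice were 20 months old. From 18 months of age they had received either vehicle or ABT-737 at 25 mg/kg for 2 months. Doses were given on 2 consecutive days at the beginning of each month. Kidney, liver and lung each had 4 young, 3 old vehicle and 3 old ABT-737 libraries, and skin had 3 of each, which gave 39 libraries of mRNA 3′ ends. The treatment label of the ABT-737 replicates numbered 4 and 5 reads ABT-738 and ABT-739, while their titles give ABT, and they were taken as the same treatment. The labels do not say which libraries came from the same mouse, so the p-values below measure the spread between these libraries.

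B cells recognise antigen through a membrane immunoglobulin that signals through the Cd79a and Cd79b chains, and surface molecules such as Cd22 and Cr2 lower or raise the strength of that signal. They mature under the transcription factor Pax5, circulate between blood and lymphoid tissue, gather in organs at sites of chronic inflammation, and turn into antibody-secreting plasma cells, in which Mzb1 assists antibody assembly in the endoplasmic reticulum. Resting B cells are known to rely on BCL-2 for their survival, and BCL-2 is among the proteins that ABT-737 binds.

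In mm10 coordinates of the deposited table, the genes of the receptor complex lie at chr7:24897511-24902197 (Cd79a, plus strand) and chr11:106311341-106314562 (Cd79b, minus strand). The surface molecules lie at chr19:11250603-11266151 (Ms4a1), chr7:30865404-30879028 (Cd22), chr1:195136811-195176715 (Cr2) and chr8:3681737-3694174 (Fcer2a), all on the minus strand. Blk lies at chr14:63372837-63417187 and Pax5 at chr4:44531506-44710440, also on the minus strand. Annotated transcripts on the plus strand overlap Ms4a1 (4930526L06Rik) and Pax5 (5730488B01Rik). In the separate skin annotation such transcripts also overlap Cd22 (Gm29439) and Fcer2a (Trappc5). Where counting did not use strand, the reads of overlapping transcripts could not be told apart, which includes those of Cd22 in skin.

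The stretches before the start sites of Cd79a and Cd22 are shown because transcripts of both genes were higher in old lung, as described below, and because such stretches are where B lineage factors are known to bind. Each run is the 250 bases before the start, read 5′ to 3′ on the gene's own strand from RefSeq annotation on GRCm38.p6, at chr7:24897247-24897496 for Cd79a and chr7:30879029-30879278 for Cd22. Capitals mark a match to the core recognised by the early B cell factor EBF, which is TCCC, any 2 bases, then GGGA.
Cd79a: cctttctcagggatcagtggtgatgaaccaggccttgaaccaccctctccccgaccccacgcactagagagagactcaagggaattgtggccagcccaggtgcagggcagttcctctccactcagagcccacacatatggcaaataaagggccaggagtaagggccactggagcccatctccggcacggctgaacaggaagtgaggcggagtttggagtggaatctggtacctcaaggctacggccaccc
Cd22: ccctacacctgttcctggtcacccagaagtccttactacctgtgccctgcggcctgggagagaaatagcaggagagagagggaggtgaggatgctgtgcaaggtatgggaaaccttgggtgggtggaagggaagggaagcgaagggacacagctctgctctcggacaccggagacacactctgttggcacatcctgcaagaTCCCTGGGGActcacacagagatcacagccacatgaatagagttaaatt
The Cd22 match began at position -49 relative to the start. Among all 32851 RefSeq promoter windows of 300 bases (250 before and 50 after the start), 297 (0.904%) held this motif on either strand. The octamer ATGCAAAT, bound by Oct factors and their coactivator Pou2af1, occurred in 570 windows (1.74%) on either strand. It was in no window of the 5 genes for which a RefSeq window was given (Cd79a, Cd22, Pax5, Cr2 and Fcer2a), and the EBF motif was in that of Cd22 alone. These matches describe letters in a window and not bound sites.

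The tissues differed in depth and in how many of the 9 genes could be tested. The 10 kidney libraries held between 1431814 and 3513311 counts, the 10 lung libraries between 1046508 and 2600092 and the 9 skin libraries between 1493411 and 3842808, whereas the 10 liver libraries held only between 223957 and 891116. A gene was tested where its counts passed a filter on low values, which 7 of the 9 genes did in lung, 3 in kidney (Cd79b, Cd22 and Mzb1), 1 in skin (Cd79b) and 0 in liver. Because some genes pass such a filter through the group in which they are high, counts and medians over the genes that passed describe them. They are no support for a difference. The floor of 3 counts corresponded to between 1.12 and 3.16 CPM (counts scaled to a common library total, with sizes corrected by TMM) in lung libraries but to between 3.51 and 13.1 CPM in liver libraries. The tissues carried their own defining genes, with group means in young mice of 6022 CPM for the phosphate transporter Slc34a1 in kidney, 35896 CPM for albumin (Alb) in liver, 18840 CPM for the club cell secretory protein Scgb1a1 in lung and 3431 CPM for the keratin Krt10 in skin.

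The genes were first ordered over the tissues of young mice, which in kidney, liver and lung share a table and a normalization. B cell transcripts were far more abundant in young lung than in young kidney or liver. All 7 of the genes tested across the 3 tissues were higher in lung than in kidney, where 32.6% of all 13107 genes tested were higher in lung, and 6 of 7 were higher in lung than in liver, where 37.6% of all genes were. On the scale common to these tissues, Cd79b, a signalling chain of the B cell receptor, had 45.4 ± 12.5 CPM in young lung (SD, n = 4), 2.11 ± 0.40 in young kidney and 4.18 ± 2.61 in young liver. The lung level of Cd79b exceeded that of kidney by 4.39 ± 0.59 on the log2 scale (SE, adjusted p = 6.13e-08) and that of liver by 3.47 ± 0.80 (adjusted p = 3.75e-04). Cd22, an inhibitory receptor of B cells, had 18.1 ± 3.24 CPM in young lung, 0.566 ± 0.728 in kidney and 0.527 ± 1.05 in liver. Mzb1 had 14.9 ± 2.10 CPM in young lung and 3.42 ± 0.50 in young kidney, a difference of 2.13 ± 0.53 on the log2 scale (adjusted p = 7.64e-04), and no count in any of the 4 young liver libraries. Young kidney and young liver were not placed in order. Cd79a and Fcer2a had no count in either, Ms4a1, Cd22 and Blk had at most 4 counts in a library, and these genes entered the joint fit through their counts in other groups, so a test between kidney and liver says little of them. Cd79b differed between kidney and liver by -0.93 ± 1.17 on the log2 scale (adjusted p = 0.567), and Mzb1 did not pass with edgeR (adjusted p = 0.108) but did with DESeq2. The gene that fell short in lung against liver was Cd79a (adjusted p = 0.170), which had no count in young liver and a mean of 0.853 CPM in young lung.

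Old vehicle lung held more of most of these transcripts than young lung. In a bulk tissue, more cells of a type and more RNA per cell cannot be told apart, here or in any comparison that follows. Of the 7 genes tested in lung, 5 were higher in old vehicle than in young mice (Cd79a, Cd79b, Ms4a1, Cd22 and Mzb1), where 8.15% of all 11949 genes tested were higher. The median log2 fold change of the 7 genes was 1.85, against 0.04 over all genes.

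**Figure D1:**
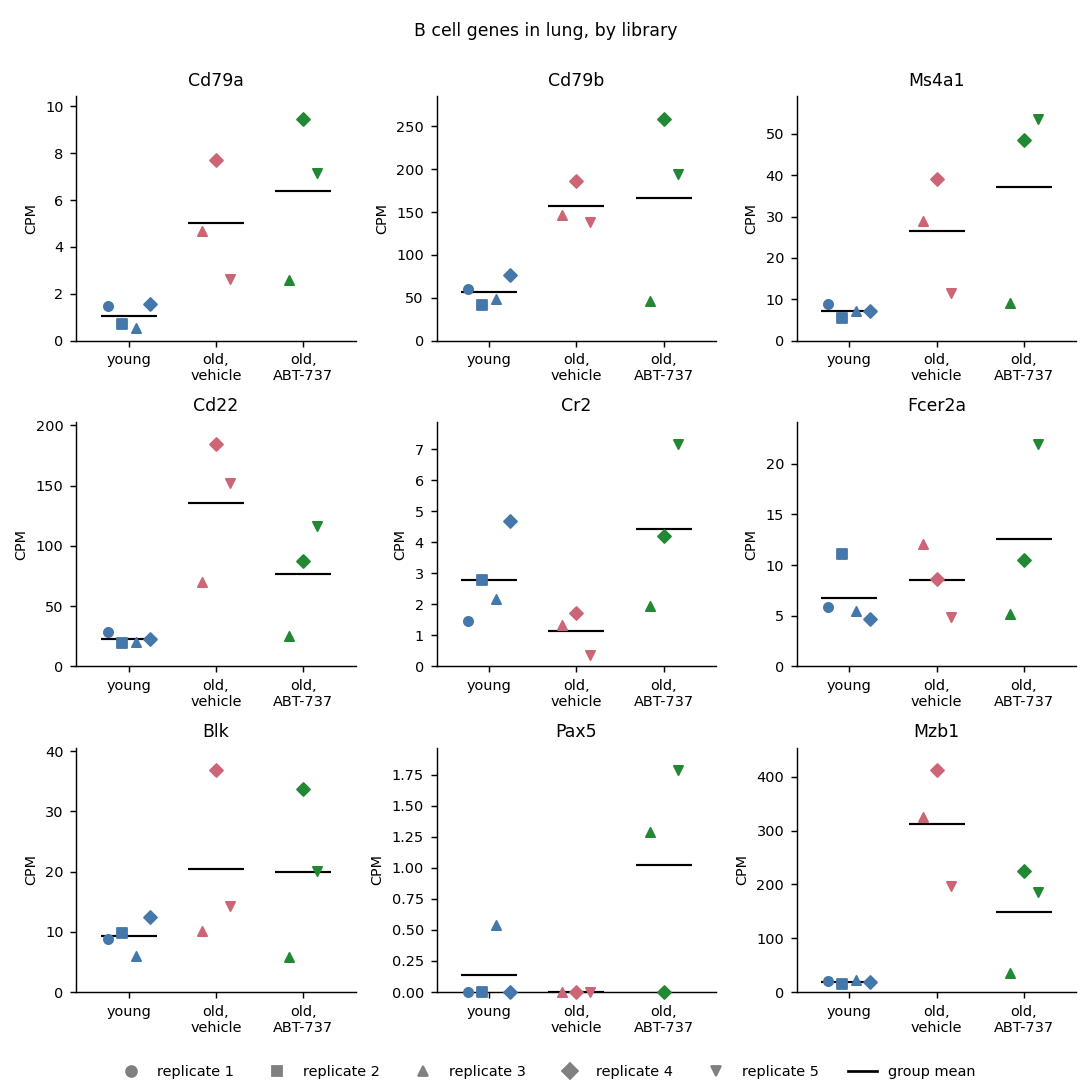
CPM of each of the 9 B cell genes in the 10 lung libraries (vertical axis, CPM from 0; horizontal axis, young, old vehicle and old ABT-737), with a point per library, its shape giving the replicate number, and a line at the group mean. For Cd79a, Cd79b, Ms4a1, Cd22 and Mzb1 all vehicle libraries lie above all young ones, and the ABT-737 library numbered 3 lies far below the other two for most genes.

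Among the receptor chains, Cd79b stood at 60.8, 41.7, 48.3 and 76.4 CPM in the young lungs, at 146, 186 and 138 CPM in the vehicle lungs and at 45.7, 259 and 194 CPM in the ABT-737 lungs. The vehicle libraries all lay above the young ones, whereas the ABT-737 library numbered 3 lay within the young range and the other two lay above every vehicle library. Old vehicle lung was higher than young by 1.46 ± 0.42 on the log2 scale (SE, adjusted p = 0.0360). Cd79a, the partner chain, was sparse, with 1 to 18 counts in each lung library. It stood at 1.47, 0.695, 0.543 and 1.56 CPM in the young, 4.70, 7.72 and 2.62 CPM in the vehicle and 2.58, 9.48 and 7.16 CPM in the ABT-737 lungs, and was higher in vehicle than in young by 2.12 ± 0.63 on the log2 scale (adjusted p = 0.0399). Every old library, of either treatment, lay above every young one for Cd79a.

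Of the surface molecules, Cd22 stood at 28.4, 19.5, 20.1 and 22.9 CPM in the young, 69.8, 184 and 152 CPM in the vehicle and 25.1, 87.5 and 117 CPM in the ABT-737 lungs. Vehicle exceeded young by 2.57 ± 0.44 on the log2 scale (adjusted p = 0.00356), with no overlap, and the ABT-737 library numbered 3 lay within the young range. Ms4a1, which encodes the CD20 antigen of mature B cells, stood at 8.83, 5.56, 7.05 and 7.28 CPM in the young, 28.8, 39.0 and 11.6 CPM in the vehicle and 9.02, 48.5 and 53.7 CPM in the ABT-737 lungs. It was higher in vehicle than in young lungs by 1.85 ± 0.53 (adjusted p = 0.0349), and all old libraries lay above the young ones, the lowest by a narrow margin. Fcer2a, the low affinity IgE receptor CD23 of follicular B cells, ranged from 4.68 to 11.1 CPM in young and from 4.86 to 12.1 CPM in vehicle lungs, and its difference of 0.31 ± 0.51 did not pass the test (adjusted p = 0.723). Cr2, the complement receptor that follicular dendritic cells also carry, had only 1 to 16 counts in a lung library and was not tested. It went the other way, with 7 counts in all vehicle and 20 in all young lungs, a pooled ratio of 0.390 (95% interval 0.139 to 0.961, counting error only), and these groups overlapped in CPM.

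Blk, a Src family kinase downstream of the receptor, stood at 8.83, 9.73, 5.97 and 12.5 CPM in the young, 10.1, 36.9 and 14.2 CPM in the vehicle and 5.80, 33.7 and 20.1 CPM in the ABT-737 lungs. Its groups overlapped, and the vehicle minus young difference of 1.15 ± 0.53 on the log2 scale did not pass (adjusted p = 0.161). Pax5 had 0 to 4 counts in each lung library and was not tested. Mzb1 had the greatest difference of the 7, at 19.6, 15.3, 21.7 and 18.2 CPM in the young, 325, 413 and 198 CPM in the vehicle and 35.4, 226 and 186 CPM in the ABT-737 lungs. Vehicle lungs exceeded young ones by 4.05 ± 0.49 on the log2 scale (adjusted p = 0.00219), and every old library lay above every young one.

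The lung calls in old vehicle against young mice depended on the number of libraries. Leaving out any of the 4 young libraries, or the vehicle library numbered 3 or 4, left 2 genes called (Cd22 and Mzb1), and leaving out the vehicle library numbered 5 left 3 (those and Ms4a1), while leaving out an ABT-737 library left all 5. The share of all genes called in each of those fits is not given, so these counts are not read further. Where at least 10 counts in every library were required, only Cd79b, Cd22 and Mzb1 could be tested, and all 3 were called.

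ABT-737-treated lungs were compared with vehicle-treated lungs to ask whether the drug altered these transcripts. None of the 7 genes passed edgeR's test, where 0% of all 11949 genes did. Without adjustment, p was under 0.05 for 1 of the 7 genes (Mzb1) and for 1919 of all genes, and DESeq2 called 342 genes and none of the 7. With the replicate number as a block, 72 genes were called and again none of the 7. The fold changes were split, 4 upward and 3 downward, with a median of 0.08 against 0.04 over all genes. Mzb1 had 149 ± 100.2 CPM with ABT-737 and 312 ± 108 CPM with vehicle (SD, n = 3 each), a log2 difference of -1.07 ± 0.48 (SE, adjusted p = 0.293). Cd22 had 76.5 ± 46.8 and 135 ± 59.1 CPM, a log2 difference of -0.83 ± 0.45 (adjusted p = 0.388). Ms4a1 had 37.1 ± 24.4 and 26.5 ± 13.9 CPM, a log2 difference of 0.49 ± 0.53 (adjusted p = 0.676), and Fcer2a had 12.5 ± 8.56 and 8.50 ± 3.61 CPM, a difference of 0.64 ± 0.53 (adjusted p = 0.573). Cd79a, Cd79b and Blk differed by 0.31 ± 0.56, 0.08 ± 0.45 and -0.10 ± 0.55 on the log2 scale, with adjusted p of 0.812, 0.949 and 0.948. Standard errors near 0.5 mean that differences of about this size could not be seen with 3 libraries a group, so these values do not show that the drug left the genes as they were.

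A library set the sign of several of these differences. The ABT-737 library numbered 3 was the lowest of the drug group for each of the 7 tested genes, and without it Blk differed by 0.35 on the log2 scale and Cd79b by 0.53. Leaving out the ABT-737 library numbered 4 gave -0.39 for Cd79b, leaving out number 5 gave -0.15 for Fcer2a and -0.06 for Cd79b, and with the block Cd79b stood at -0.18. Leaving out the vehicle library numbered 4 gave 0.64 for Blk, and leaving out number 5 gave -0.03 for Cd79a and -0.003 for Cd79b. The sign for Mzb1 and Cd22 stayed negative and that for Ms4a1 positive in each of the 10 leave-outs. Among the untested genes, Cr2 had 2, 4 and 1 counts in the vehicle lungs, 3, 4 and 16 in the ABT-737 lungs and 3, 4, 4 and 9 in the young ones. Its vehicle libraries lay below its ABT-737 libraries in CPM, at a ratio of 4.51 over the pooled counts (95% interval 1.87 to 12.4, counting error only). Pax5 had no count in the vehicle lungs, 2, 0 and 4 counts in the ABT-737 lungs and 1 in all young lungs.

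Against the same young lungs, 2 of the 7 genes were higher in ABT-737-treated mice (Ms4a1 and Mzb1), where 2.15% of all genes were. Mzb1 was higher than in young lung by 2.98 ± 0.48 on the log2 scale (adjusted p = 0.0231) and Ms4a1 by 2.34 ± 0.53 (adjusted p = 0.0404). Cd22, at 1.75 ± 0.44 (adjusted p = 0.0507), Cd79a, at 2.43 ± 0.64 (adjusted p = 0.0562), and Cd79b, at 1.54 ± 0.43 (adjusted p = 0.0682), fell just short and were called by DESeq2, which called 5 of the 7, where it called 4.82% of all genes higher. Without the ABT-737 library numbered 3 the same 5 were called, without number 4 Ms4a1, Cd22 and Mzb1 (3), without number 5 only Mzb1 (1), and leaving out any young library left 0. The count was 4 without the vehicle library numbered 4 or 5 (Cd79a, Ms4a1, Cd22 and Mzb1), and it was 2 without number 3 (Cd22 and Mzb1). For these leave-outs the share of all genes called is not given, and the counts are not read further. Both old groups were compared with the same young libraries.

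**Figure D2:**
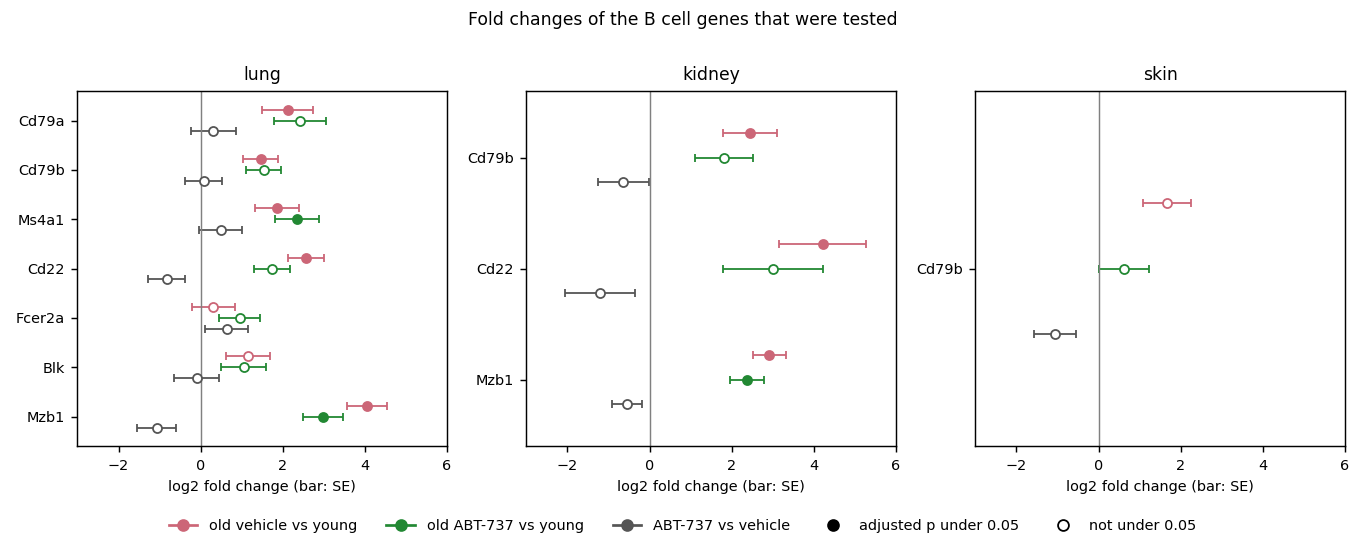
Log2 fold changes (horizontal axis, bars are SE) of the B cell genes tested in lung, kidney and skin, for old vehicle against young, old ABT-737 against young and ABT-737 against vehicle, with filled points where the adjusted p was under 0.05. Vehicle against young lies to the right of 0 for every gene shown, and no ABT-737 against vehicle point is filled.

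Genes of the wider B cell programme were higher in old vehicle lung too. Of the receptor complex and coreceptor genes, 7 of the 12 tested were higher than in young lung (median log2 fold change 2.02), against 8.15% of all genes. They included Cd72, an inhibitory coreceptor, which rose by 4.88 ± 0.80 on the log2 scale (adjusted p = 0.00314), and Fcgr2b, the inhibitory IgG receptor, by 3.82 ± 0.78. Fcrl5, an Fc receptor-like protein of B and plasma cells, was also called, with no count in the young lungs and a mean of 7.99 CPM in the vehicle lungs. Cd81, the most abundant gene of the list and one that many cell types carry, did not pass, at 456 to 720 CPM in the young and 421, 636 and 399 CPM in the vehicle lungs (log2 difference -0.29 ± 0.32, adjusted p = 0.574).

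Of the genes that carry the receptor signal, 10 of 16 were higher (median 1.38), among them the exchange factor Vav1 (2.29 ± 0.42), the lipid kinase subunit Pik3cd (2.06 ± 0.41), the kinase Prkcb (1.84 ± 0.37) and the phosphatase Ptpn6 (1.69 ± 0.33), several of which other leukocytes use as well. Of the B lineage transcription factors, 6 of 11 were higher (median 1.55), with Ikzf3 at 3.71 ± 0.51 and the Oct coactivator Pou2af1 at 2.80 ± 0.53. Of the survival and homing genes, 6 of 11 were higher (median 2.02). Cxcl13, the chemokine that draws B cells into follicles, stood at 5.40, 4.17, 3.80 and 2.08 CPM in the young, 47.0, 105 and 175 CPM in the vehicle and 14.2, 269 and 98.9 CPM in the ABT-737 lungs. All old lungs lay above all young ones for Cxcl13, and vehicle exceeded young by 4.80 ± 0.78 on the log2 scale (adjusted p = 0.00306). Tnfrsf13c, the receptor for the survival factor BAFF, was higher by 2.81 ± 0.52, Ltb, a lymphotoxin chain that organises lymphoid tissue, by 2.93 ± 0.53, and Cxcr5, the receptor of Cxcl13, by 2.02 ± 0.48. The germinal centre list had 0 of 4 tested genes called.

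Plasma cell genes followed, with 8 of 12 higher in old vehicle lung (median 1.79) and 7 of 12 higher in ABT-737-treated than in young lung. Derl3, which helps clear misfolded secretory proteins, stood at 6.87, 6.26, 6.51 and 10.9 CPM in the young, 105, 68.6 and 60.6 CPM in the vehicle and 13.5, 70.6 and 75.6 CPM in the ABT-737 lungs. The vehicle minus young difference of Derl3 was 3.33 ± 0.48 on the log2 scale (adjusted p = 0.00259), with no overlap. Jchain, which links polymeric antibodies, had 2, 1, 2 and 2 counts in the young, 66, 54 and 66 in the vehicle and 20, 2 and 398 in the ABT-737 lungs, so that the drug group spanned both extremes. The factor Irf4 was higher by 2.48 ± 0.49, whereas Xbp1, the most abundant gene of the list and one that secretory lung epithelium also uses, overlapped between the groups. In ABT-737 against vehicle lung none of these lists had a called gene by edgeR, as in that comparison none of all genes was called. The medians were -0.59 for the coreceptors, -0.50 for signalling, -0.26 for the transcription factors, -0.89 for survival and homing, -0.23 for the plasma cell list and 0.07 for the germinal centre list.

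Other leukocytes moved in the same lungs. Of the T cell genes, 12 of 12 were higher in old vehicle than in young lung (median 3.76), as were 6 of 6 pan-leukocyte, 5 of 7 natural killer and cytotoxic, 4 of 7 macrophage and 5 of 9 MHC class II genes. The summed T cell list, led by Lck, stood at 580, 714 and 2045 CPM in the vehicle lungs and at 171, 336 and 486 CPM in the ABT-737 lungs, whose ranges did not overlap, and 12 of 12 genes had negative fold changes (median -1.73). Summed hemoglobin and other red cell genes, led by Hbb-bs, ran from 1417 to 2707 CPM in the young lungs, stood at 16839, 7455 and 2253 CPM in the vehicle lungs and at 48051, 5071 and 8291 CPM in the ABT-737 lungs. The ABT-737 lung numbered 3, lowest for the B cell genes, thus had the highest red cell sum, although the tissues were perfused. The part of blood or of other leukocytes in the B cell values was not tested. Of the anti-apoptotic BCL-2 family, 4 of 7 were higher in old vehicle lung, including Bcl2 at 2.42 ± 0.59 (adjusted p = 0.0167). Bcl2 itself stood at 68.4, 63.0 and 432 CPM in the vehicle and at 16.7, 25.3 and 60.8 CPM in the ABT-737 lungs, which did not overlap, with a difference of -2.42 ± 0.66 that did not pass (adjusted p = 0.129). The young lungs held between 30.4 and 40.3 CPM of Bcl2.

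In kidney, the B cell genes were sparse and most could not be tested. All 3 of the genes tested there (Cd79b, Cd22 and Mzb1) were higher in old vehicle than in young mice, where 7.75% of all 11123 genes tested were. Their median log2 fold change was 2.92, against 0.01 over all genes. Cd22, with few young counts, passed the filter through the old groups, so this median describes the 3 genes and is no support for a difference. Mzb1 stood at 3.86, 3.58, 3.22 and 4.62 CPM in the young, 18.5, 55.4 and 16.4 CPM in the vehicle and 23.6, 20.3 and 15.1 CPM in the ABT-737 kidneys. Every old kidney lay above every young one, and vehicle exceeded young by 2.92 ± 0.40 on the log2 scale (SE, adjusted p = 1.58e-04). Cd79b stood at 2.57, 2.76, 1.76 and 2.31 CPM in the young, 5.10, 33.5 and 4.70 CPM in the vehicle and 11.8, 2.47 and 10.9 CPM in the ABT-737 kidneys, and was higher in vehicle by 2.45 ± 0.67 (adjusted p = 0.0230). Cd22 had 1, 1, 0 and 4 counts in the young, 4, 48 and 6 in the vehicle and 10, 4 and 13 in the ABT-737 kidneys, with a difference between vehicle and young of 4.22 ± 1.06 (adjusted p = 0.0146). The vehicle kidney numbered 4 was far above the other vehicle kidneys for each of the 3 genes.

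That library carried much of the kidney result. Without it only Mzb1 (1 of 3) was called in vehicle against young, at 2.21 on the log2 scale, and Cd22 stood at 1.93 and Cd79b at 1.05. Without the young library numbered 2, 3 or 4, Cd22 and Mzb1 (2 of 3) were called. What share of all genes these leave-outs called is not given, so their counts are not read further. Where at least 10 counts in every library were required, none of the 3 could be tested. Their lowest counts were 5 (Cd79b), 0 (Cd22) and 9 (Mzb1). The other 6 genes had at most 5 counts in any kidney library. Pax5 had none in all 10, Fcer2a 2 counts in the ABT-737 kidney numbered 3, Cd79a at most 1, Blk at most 3, Cr2 at most 4, and Ms4a1 at most 1 in young and vehicle kidneys but 5, 2 and 1 with ABT-737. For Cr2, the pooled ratio of vehicle to young was 1.18 (95% interval 0.3025 to 4.07, counting error only).

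**Figure D3:**
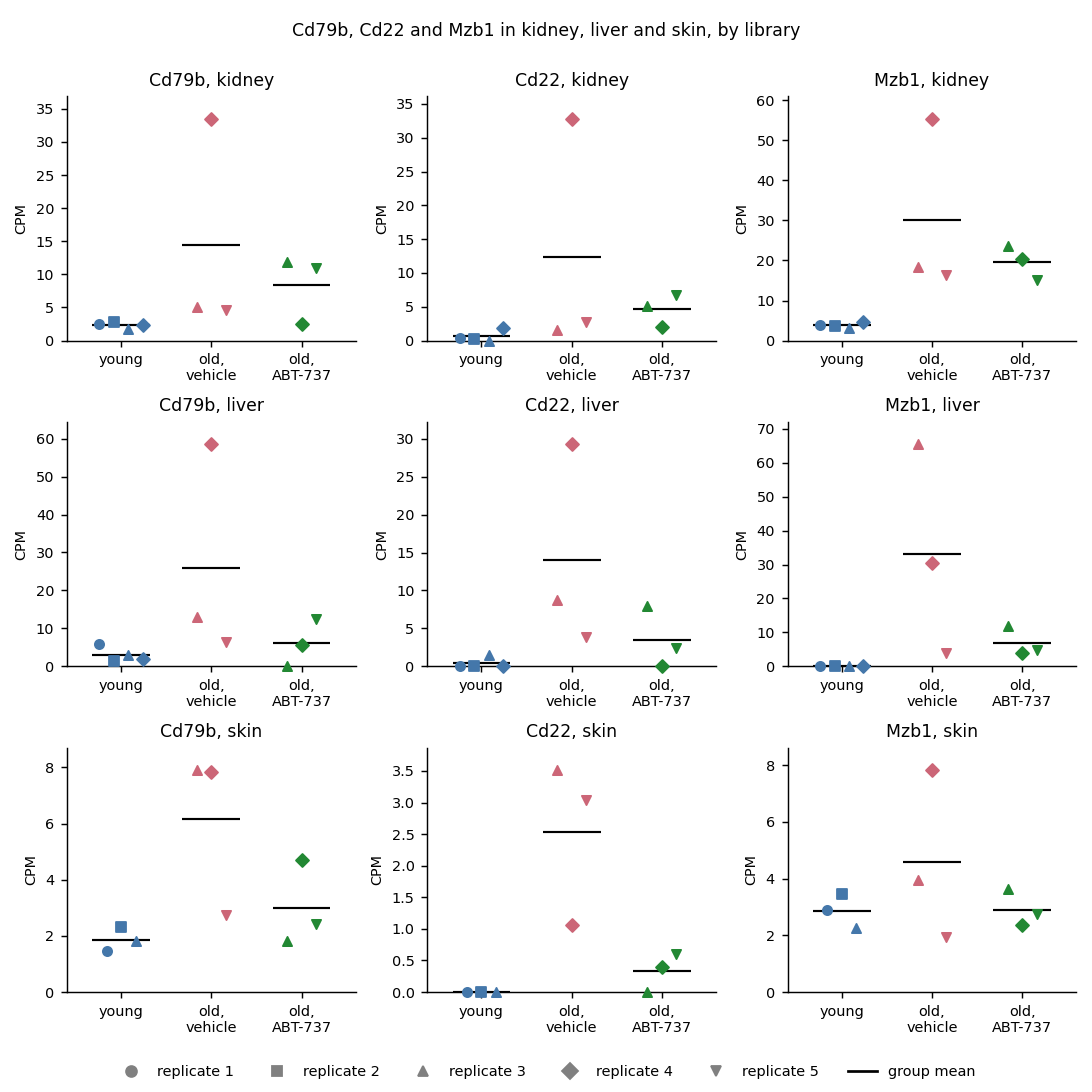
CPM of Cd79b, Cd22 and Mzb1 (vertical axes, from 0) in kidney, liver and skin by group, with a point per library, its shape giving the replicate number, and a line at the group mean. The vehicle library numbered 4 stands above all others of its tissue for the 3 genes in kidney and for Cd79b and Cd22 in liver, while skin levels stay under 8 CPM.

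ABT-737 against vehicle gave no call among these genes in kidney. None of the 3 passed edgeR's test, where 1.35% of all genes did, none had an unadjusted p under 0.05, and DESeq2 called none. The log2 differences were -1.22 ± 0.85 for Cd22 (adjusted p = 0.540), -0.64 ± 0.63 for Cd79b (adjusted p = 0.691) and -0.54 ± 0.37 for Mzb1 (adjusted p = 0.522). Without the vehicle kidney numbered 4 each turned positive, to 1.08, 0.76 and 0.17. Against young kidney, Mzb1 (1 of 3) was higher with ABT-737, by 2.38 ± 0.42 on the log2 scale (adjusted p = 0.00715), where 1.38% of all genes were higher. Without the vehicle kidney numbered 4, which entered that fit through the shared spread, all 3 were called in this comparison. That fit's share of all genes called is not given. With at least 10 counts required in every library, none of the 3 could be tested.

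Genes of other leukocytes did pass the test in these kidneys. With 1.21% of all genes lower with ABT-737 than with vehicle, 7 of 7 MHC class II genes were lower, as were 5 of 6 pan-leukocyte genes, 3 of 6 T cell genes, 3 of 6 macrophage genes and 2 of 2 natural killer and cytotoxic genes. Lck, a T cell kinase, stood at 4.72, 4.96, 7.03 and 2.77 CPM in the young, 34.9, 36.9 and 37.6 CPM in the vehicle and 9.25, 4.45 and 6.75 CPM in the ABT-737 kidneys, and fell by 2.41 ± 0.28 on the log2 scale (adjusted p = 3.97e-04). In the B cell lists, against the same 1.21%, the genes called lower were 1 of 6 coreceptor genes (Ptprc, which all leukocytes carry) and 1 of 14 signalling genes (Pik3cd, at -1.83 ± 0.39). So were 2 of 8 transcription factors (Pou2f2 at -1.56 ± 0.25 and Irf8 at -0.85 ± 0.17, both also used by myeloid cells), 0 of 9 plasma cell and 0 of 3 survival and homing genes. Whether the B cell genes differed from these lists in their response was not tested. In vehicle against young kidney, those lists had 3 of 6, 8 of 14, 4 of 8, 4 of 9 and 2 of 3 genes higher in the same order. So were 6 of 6 pan-leukocyte, 6 of 6 T cell, 6 of 6 macrophage, 7 of 7 MHC class II and 5 of 5 red cell genes (median log2 fold change 2.40 for the last). The summed red cell genes, led by Hbb-bs, ran from 996 to 5857 CPM in the young kidneys, from 11587 to 11625 CPM in the vehicle and from 7556 to 11258 CPM in the ABT-737 kidneys, and their part in the B cell values was not tested. Pou2af1 had 0, 0, 1 and 1 counts in the young, 3, 27 and 4 in the vehicle and 13, 14 and 2 in the ABT-737 kidneys, with the same vehicle library at the top.

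In liver the 9 genes were too sparse to be tested, and the counts are given as they stand. Mzb1 had no count in the 4 young livers, 15, 26 and 3 counts in the vehicle livers and 3, 2 and 2 counts in the ABT-737 livers. Over the pooled counts scaled by depth, vehicle was at least 18.6-fold higher than young and ABT-737 at least 4.65-fold higher, taking the floor of 3 counts over the young group. The ABT-737 to vehicle ratio of Mzb1 was 0.250 (95% interval 0.0951 to 0.560, counting error only). Cd79b had 3, 1, 2 and 1 counts in the young, 3, 50 and 5 in the vehicle and 0, 3 and 5 in the ABT-737 livers, a pooled ABT-737 to vehicle ratio of 0.217 (0.0895 to 0.457). Cd22 had 1 count in all young livers, 2, 25 and 3 in the vehicle and 2, 0 and 1 in the ABT-737 livers, a pooled ratio of 0.157 (0.0307 to 0.506). For Cd79b and Cd22 the vehicle liver numbered 4 held 50 of 58 and 25 of 30 counts of its group, and the intervals do not cover the spread between libraries. Cd79a and Pax5 had no count in any liver library. Ms4a1, Cr2 and Blk had counts in the vehicle liver numbered 4 alone (3, 2 and 4), and Fcer2a had 2 counts there, 1 in the vehicle liver numbered 5 and 1 in an ABT-737 liver.

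The vehicle liver numbered 3 and the ABT-737 liver numbered 3 were the shallowest libraries, with 223957 and 267345 counts, and there a floor of 3 counts stood at about 13.1 and 11.9 CPM. Where only 1 count over all libraries was required, 7 of the 9 genes were tested in liver, and edgeR called Cd79b and Mzb1 lower with ABT-737 than with vehicle (2), where 2.54% of all 14330 genes then tested were lower. It called Cd79b, Cd22 and Mzb1 higher in vehicle than in young (3), where 6.79% of all genes were higher, and Mzb1 higher with ABT-737 than in young (1), where 1.58% were. With the usual filter and all libraries, 11.7% of all genes were higher in vehicle and 3.13% higher with ABT-737 than in young. Under that filter Mzb1 was tested where the vehicle liver numbered 5 was left out, and was then called in each of the 3 comparisons (1 gene). Mzb1 was also tested where any ABT-737 liver was left out, and was then called higher in vehicle than in young. The shares of all genes called in those leave-outs are not given, so these calls are not read further. Other leukocyte genes were lower with ABT-737 in these livers, where 2.85% of all 5583 genes tested were, namely 6 of 6 MHC class II, 4 of 4 pan-leukocyte and 6 of 7 macrophage genes. The B cell lists had 2 of 3 signalling genes lower (Syk at -2.77 ± 0.51 and Ptpn6 at -1.69 ± 0.31) and 1 of 3 transcription factors (Pou2f2 at -1.68 ± 0.39), all of which macrophages express too. In vehicle against young liver, 4 of 4 pan-leukocyte, 7 of 7 macrophage, 6 of 6 MHC class II and 4 of 5 red cell genes were higher (median log2 fold change 2.47 for the last), and in ABT-737 against young liver 0, 0, 0 and 4 of these. The summed red cell genes, led by Hbb-bs, stood at 1113, 496, 396 and 700.2 CPM in the young, 3312, 2716 and 3148 CPM in the vehicle and 2532, 1163 and 1800 CPM in the ABT-737 livers, and their part in the B cell values was not tested.

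In skin, Cd79b was the gene that could be tested. It had 2, 4 and 4 counts in the young, 18, 22 and 10 in the vehicle and 7, 12 and 8 in the ABT-737 skins. The vehicle libraries lay above the young ones in CPM, but the log2 difference of 1.67 ± 0.58 did not pass edgeR's test (adjusted p = 0.0895), so that 0 of 1 gene was called where 5.84% of all 14224 genes tested were higher. Without adjustment its p was 0.0181, and DESeq2 did not call it. ABT-737 differed from vehicle by -1.05 ± 0.51 (adjusted p = 0.663), in a comparison in which 0% of all genes were called by edgeR, 1134 had an unadjusted p under 0.05 and DESeq2 called 60. Against young skin the ABT-737 skins differed by 0.62 ± 0.61 (adjusted p = 0.521), where 5.17% of all genes were called in either direction. Cd22 had no count in the young skins, 8, 3 and 11 counts in the vehicle skins and 0, 1 and 2 counts in the ABT-737 skins, and these last 2 groups did not overlap in CPM. For Cd22, vehicle was at least 4.48-fold higher than young over the floor of 3 counts, and the pooled ABT-737 to vehicle ratio was 0.123 (95% interval 0.0235 to 0.408, counting error only). Mzb1 had 4, 6 and 5 counts in the young, 9, 22 and 7 in the vehicle and 14, 6 and 9 in the ABT-737 skins, which overlapped in CPM. Blk had no count in young skin and 1, 4 and 4 counts in vehicle skin, at least 1.83-fold higher, and the other 5 genes had at most 3 counts in any skin library.

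The skin table also lists the immunoglobulin constant regions, which measure antibody transcripts directly. Of the 16 immunoglobulin genes listed, 6 passed the filter and were tested. Of these 6, 4 were higher in old vehicle than in young skin (Igkc, Ighm, Igha and Ighg2c), where 5.84% of all 14224 genes tested were higher. Some passed the filter through the old groups, as did Ighg2c with 1, 0 and 0 counts in the young, so this count describes the genes and is no support for a difference. Igkc, the kappa light chain, had 2, 6 and 10 counts in the young, 339, 2764 and 407 in the vehicle and 534, 717 and 514 in the ABT-737 skins, and was higher in vehicle than in young by 6.96 ± 1.003 on the log2 scale (adjusted p = 0.0112). Ighm, the heavy chain of IgM, had 16, 18 and 39 counts in the young, 187, 1369 and 301 in the vehicle and 397, 620 and 425 in the ABT-737 skins, a difference of 4.02 ± 0.77 between vehicle and young (adjusted p = 0.0175). For both genes all old libraries lay above all young ones and the 2 old groups overlapped. Igha, the heavy chain of IgA, had 0, 6 and 9 counts in the young, 359, 366 and 48 in the vehicle and 213, 10 and 30 in the ABT-737 skins, so that IgA transcripts varied widely within each old group. Ighg2c had 1, 0 and 0 counts in the young and 39, 13 and 17 in the ABT-737 skins. Its vehicle counts were 6, 343 and 14, so that the vehicle skin numbered 4 held most of them. None of the 6 passed in ABT-737 against vehicle, where 0% of all genes did. Red cell genes, led by Hbb-bs, were also higher in vehicle than in young skin (5 of 5, median log2 fold change 3.75), and their sum stood at 546, 598 and 507 CPM in the young, 4804, 14706 and 1266 CPM in the vehicle and 997, 351 and 802 CPM in the ABT-737 skins. The vehicle skin numbered 4 was thus the highest for red cell genes as for Igkc, Ighm and Ighg2c. The part of blood in the immunoglobulin values was not tested. Some genes of the immunoglobulin family are near-identical in sequence, and among those the counting may split reads. Plasma cell genes had 2 of 8 higher in old vehicle skin (Prdm1 at 1.80 ± 0.39 and Creld2 at 1.05 ± 0.23), coreceptors 3 of 7 and signalling genes 5 of 13, while MHC class II had 8 of 8 and pan-leukocyte genes 5 of 6. Of the B lineage transcription factors 1 of 8 was higher, with 4 fold changes upward and 4 downward (median 0.26), and of the germinal centre genes 0 of 3 were. Skin Cxcl13 was higher in vehicle than in young by 5.13 ± 1.28 (adjusted p = 0.0356), with 0, 0 and 4 counts in the young, 5, 171 and 66 in the vehicle and 21, 9 and 14 in the ABT-737 skins.

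The effects were then compared between kidney and lung, which share a table, for Cd79b, Cd22 and Mzb1, the genes that passed the filter in both. The other 4 genes of the joint fit had few or no counts in kidney, and no gene passed the filter in liver, so that their differences between tissues are not read. The vehicle minus young effect differed between lung and kidney (lung minus kidney) by -0.97 ± 0.82 on the log2 scale for Cd79b (adjusted p = 0.500), by -1.59 ± 1.09 for Cd22 (adjusted p = 0.392) and by 1.14 ± 0.74 for Mzb1 (adjusted p = 0.363). None of the 3 passed edgeR's test or had an unadjusted p under 0.05, and DESeq2 called none, where 8.04% of all genes passed edgeR's test. The ABT-737 minus vehicle effect differed by 0.71 ± 0.81 for Cd79b (adjusted p = 0.817), by 0.40 ± 0.92 for Cd22 (adjusted p = 0.948) and by -0.53 ± 0.68 for Mzb1 (adjusted p = 0.850). Again none of the 3 passed or had an unadjusted p under 0.05, where 0% of all genes passed edgeR's test, and DESeq2 called 12 of all genes and none of the 3. With standard errors of this size, the values do not show that the genes responded alike in kidney and lung.

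Summed over the 9 genes, the transcripts stood at 135, 106, 112 and 148 CPM in the young lungs, 598, 877 and 522 CPM in the vehicle lungs and 132, 679 and 608 CPM in the ABT-737 lungs. In kidney the sums were 7.29, 7.72, 6.44 and 9.69 CPM in the young, 26.7, 125 and 24.9 CPM in the vehicle and 46.2, 25.7 and 35.3 CPM in the ABT-737 mice. In all 4 tissues every vehicle library lay above every young one. The vehicle mean over the young mean was 5.31 in lung, 7.57 in kidney, 22.5 in liver and 3.03 in skin. The young sums rested on 3, 1, 3 and 1 counts over all 9 genes in liver, and on 6, 10 and 10 in skin. Those liver counts lay at or below the floor of 3, so the size of the liver ratios to young is not firm. In each tissue the vehicle library numbered 4 had the highest sum, then number 3, then number 5. Whether a number marks the same mouse in each tissue is not stated, so the 4 tissues are not taken as independent. The ratio of the ABT-737 mean to the vehicle mean was 0.711 in lung, 0.607 in kidney, 0.227 in liver and 0.499 in skin. The old groups overlapped in every tissue, and without the vehicle kidney numbered 4 this kidney ratio was 1.39 and that of vehicle to young was 3.31. Without the vehicle liver numbered 4, the liver ratio of vehicle to young was 14.9 and that of ABT-737 to vehicle was 0.345. Mzb1 carried much of the lung sum, and without it vehicle lungs stood 3.32 times above young ones. Without Mzb1 the liver ratio of vehicle to young was 12.9.

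**Figure D4:**
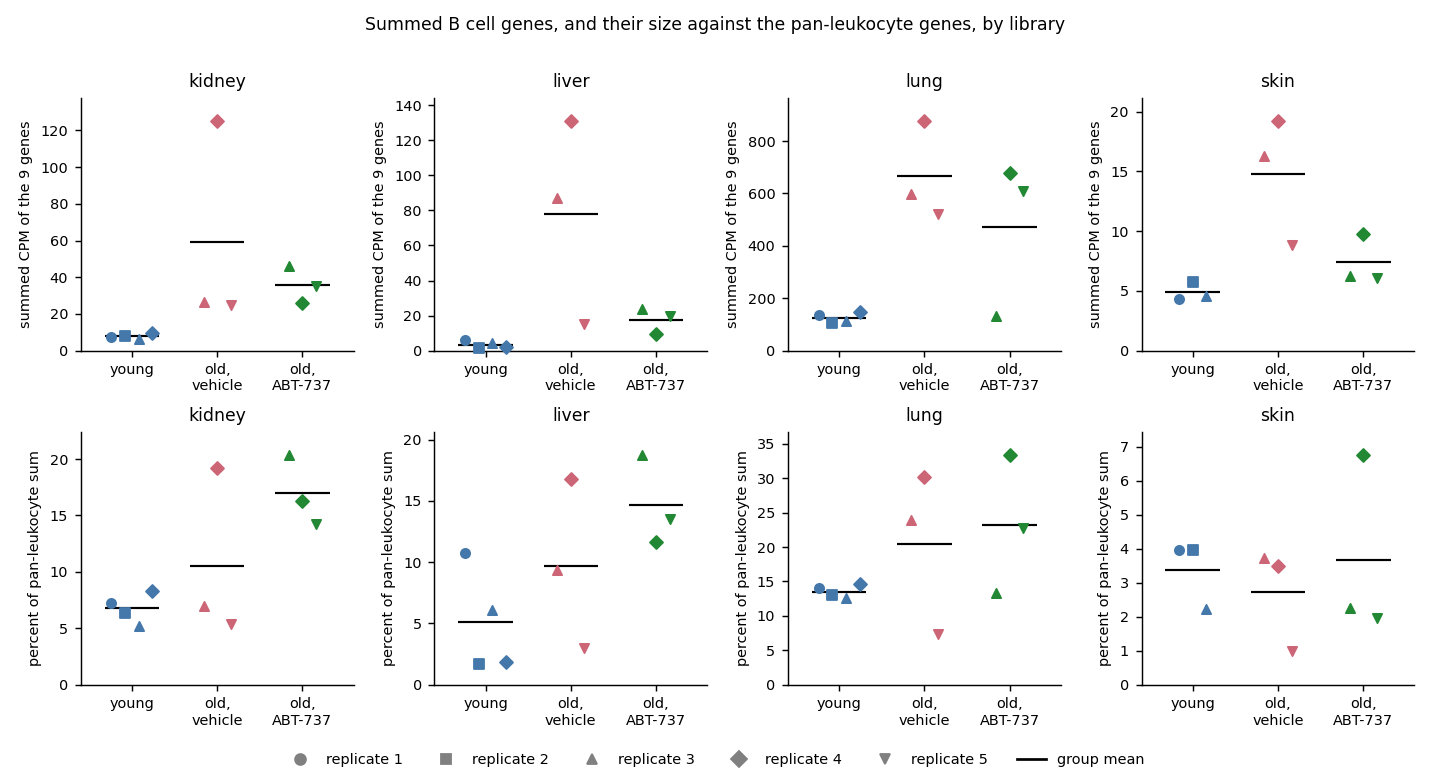
Summed CPM of the 9 B cell genes (upper panels) and that sum as a percent of the summed pan-leukocyte genes (lower panels) in kidney, liver, lung and skin, with a point per library, its shape giving the replicate number, and a line at the group mean. Every vehicle sum lies above the young sums, and the vehicle library numbered 5 has the lowest percent of its group in each tissue.

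The B cell sum was also set against the sum of the pan-leukocyte genes. In kidney it was 7.003, 19.2 and 5.34% of that sum in the vehicle mice and 20.4, 16.3 and 14.2% in the ABT-737 mice, against 5.16 to 8.30% in the young ones. All ABT-737 kidneys thus lay above all young ones, and above the vehicle kidneys except number 4. Against the T cell sum, the B cell sum was 33.8, 103 and 24.4% in the vehicle and 132, 158 and 98.6% in the ABT-737 kidneys, where the T cell sum itself was 78.9, 122 and 102 CPM and 34.9, 16.3 and 35.8 CPM. In lung the share of the pan-leukocyte sum was 12.6 to 14.6% in the young, 23.9, 30.1 and 7.30% in the vehicle and 13.4, 33.4 and 22.7% in the ABT-737 mice, and the 2 old groups overlapped. They overlapped as well in liver, at 9.39, 16.8 and 2.96% with vehicle and 18.8, 11.6 and 13.6% with ABT-737 (1.69 to 10.7% in the young), and in skin, at 3.73, 3.50 and 0.983% with vehicle and 2.25, 6.76 and 1.96% with ABT-737. In skin the vehicle share was 2.74 ± 1.52% and the young share 3.38 ± 1.005% (SD, n = 3 each), and the groups overlapped. The vehicle lung numbered 5 had the lowest share and the highest pan-leukocyte sum, 7152 CPM against 2502 and 2913 CPM in the other vehicle lungs. These shares are descriptions, for which no test was made.

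The genes whose levels ran most like those of the B cell genes were found from the correlation of log2(CPM + 1) with the mean of the tested B cell genes over the libraries of kidney, lung and skin, averaged over the 3 tissues (9558 genes, median 0.020). The 10 leading genes were Vcam1 (0.841), an adhesion molecule of inflamed endothelium and stroma, Lrmp (0.820), Wdfy4 (0.809), Pstpip1 (0.781), the complement genes C4b (0.770) and C1qc (0.761), the kinase Syk (0.748), Mpeg1 (0.747), Dnase1l3 (0.741) and Slpi (0.741). The libraries share age groups, depth and tissue, so that these values describe the ranking and test nothing, and in skin the mean rested on Cd79b alone. Vcam1 stood at 19.1, 22.9, 13.0 and 25.0 CPM in the young, 74.5, 79.8 and 129 CPM in the vehicle and 35.4, 56.9 and 131 CPM in the ABT-737 lungs, with all old libraries above the young ones.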

How the data were processed

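Bulk RNA from perfused kidney, liver, lung and skin was made by the authors into libraries of mRNA 3′ ends with a derivative of MARS-seq and sequenced on a NextSeq-500. The submitters' processing notes name HISAT 0.1.5, HOMER, bcl2fastq and mm10, with no role or order, and the use of the molecule barcodes in counting was not given in the sources used here. The deposited values are whole-number counts per gene, without normalization, as the files show. Kidney, liver and lung share a table with 1 RefSeq transcript a gene. Skin has its own, with Ensembl transcripts of which 82.5% were extended by 2000 bases at the 3′ end (Cd79a was not), so no test crossed the tables. All columns matched a sample (0 of other samples).

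Counts were tested in R 4.3.3 with edgeR 4.0.16 (glmQLFit and glmQLFTest, filterByExpr, TMM, Benjamini-Hochberg over all genes tested, adjusted p under 0.05), the 3 groups of a tissue in 1 fit, and kidney, liver and lung in 1 joint fit for differences between tissues. CPM used TMM-scaled library sizes. Pooled ratios have exact binomial intervals (95%), which cover counting error only. Alternatives were DESeq2 1.42.0, its size factors in edgeR, other filters, the replicate block and leaving out each library. No pair of libraries agreed within sampling noise (smallest chi-square per degree of freedom 2.40). Same-numbered vehicle and ABT-737 libraries correlated in their deviations from the group means in lung (0.176, 0.296 and 0.427) but not in all pairs of kidney, liver or skin. Differently numbered lung pairs ran from -0.571 (vehicle 4 with ABT-737 5) to 0.302 (vehicle 4 with ABT-737 3). The last lay above the same-numbered values of 0.176 and 0.296, so the lung values do not show that the numbers pair libraries. The labels do not say what a number marks, and no main fit paired libraries by number. The block was fitted in all 4 tissues as an alternative.

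Genes named were drawn from the 9 B cell genes, up to 4 called genes of a list and comparison, the most abundant gene of a list, and the 10 genes most like the 9. The 9 genes and the lists were chosen with earlier results of these data known.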

Additional observations from a re-analysis of the deposited data

How the results depend on the processing

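Over the alternatives that left out no library, the log2 fold changes of the B cell genes kept their direction and their side of the threshold in 137 cases, passed it newly in 7 and reversed in 1, that of Cd79b in lung under ABT-737 against vehicle, which was -0.18 with the replicate block. With at least 10 counts in every library, none of the B cell genes could be tested in kidney. In lung only Cd79b, Cd22 and Mzb1 could be. All 3 were called in vehicle against young and 1 in ABT-737 against young. With no filter beyond 1 count, edgeR called 2, 3 and 1 genes in liver (lower in ABT-737 against vehicle, higher in vehicle against young and in ABT-737 against young, where 2.54%, 6.79% and 1.58% of all genes were). It also called 5 in lung ABT-737 against young and 1 (Cd22) in skin vehicle against young. The share of all genes called in those lung and skin fits is not given, so these counts are not read further. DESeq2 called 5 in lung ABT-737 against young, where it called 4.82% of all genes higher. It also called 1 (Mzb1) in young kidney against young liver, for which that share is not given. Without Mzb1 the summed lung ratio of vehicle to young was 3.32. The causes were not tested beyond what each setting's construction shows.

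With a library left out, the calls ranged from 1 to 3 genes in kidney in vehicle against young and in ABT-737 against young, from 0 to 1 (Mzb1) in each liver comparison, from 2 to 5 in lung vehicle against young and from 0 to 5 in lung ABT-737 against young. These ranges are given without the shares of all genes called in the same fits and are not read further. The summed kidney ratio of ABT-737 to vehicle ranged from 0.471 to 1.39. For ABT-737 against vehicle, signs turned in lung for Blk (-0.64 to 0.64), Cd79a (-0.026 to 0.81), Cd79b (-0.39 to 0.53) and Fcer2a (-0.15 to 1.02), and in kidney, without the vehicle library numbered 4, for Cd22 (-1.83 to 1.08), Cd79b (-1.09 to 0.76) and Mzb1 (-0.85 to 0.17). Over all genes, ABT-737 against vehicle gave 150, 0 and 0 calls in kidney, lung and skin with edgeR and 229, 342 and 60 with DESeq2, and with the replicate block 52 in kidney, 29 in liver (against 215) and 72 in lung. Replicate blocking moved no count of called B cell genes. None of the 9 genes passed the filter in liver, whose libraries were the shallowest, and the part of depth in this was not tested.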
